A study of Mus musculus with 12 samples.

Results

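The regions described here are stretches of open chromatin that were about equally accessible in wildtype stem-cell-enriched and granulocyte-monocyte progenitor populations and that lost most of their signal in both populations of UREd/d mice. They were chosen by a rule on the measured values. Each library's counts were divided by its own column sum and scaled to CPM (counts per 1e6), averaged over the 3 libraries of a group, and raised by 0.25. A region was kept when the WT-GMP over WT-LSK ratio lay between 0.5 and 2, when both WT values were at least 2, and when the UREd/d over WT ratio was at most 1/4 in LSK and in GMP. Of 121336 regions, 57441 met the WT part of the rule and 4641 met all of it, which is 3.82% of all regions and 8.08% of those stable in WT. The limit in LSK alone was met by 8080 of the stable regions and the limit in GMP alone by 5643.

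PU.1, encoded by Spi1, is an ETS-family transcription factor of blood cells. It binds purine-rich DNA around a GGAA core, can bind its sites in closed chromatin, and is known to keep enhancers of myeloid and lymphoid genes open together with partners such as CEBP, IRF and RUNX proteins. The upstream regulatory element (URE) of Spi1 is a distal enhancer, and mice that lack it on both alleles keep only a low level of PU.1 and develop myeloid leukemia. ATAC-seq reads accessibility from where the Tn5 transposase can cut, so a fall in counts is a fall in open DNA and not a measurement of any protein.

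LSK cells (Lin- Sca-1+ c-Kit+, the compartment of stem and multipotent progenitor cells) and GMP cells (Lin- Sca-1- c-Kit+ Cd16/32+, granulocyte-monocyte progenitors) were sorted from femoral bone marrow of C57BL/6 littermates aged 8 to 12 weeks, WT or UREd/d. The 4 groups, with 3 mice each, are named by genotype and cell type, for example WT-LSK or URE-GMP, and the 12 libraries were made by the OmniATAC protocol from 7000 to 35000 cells. Both UREd/d groups carry the deletion from the germline, so the cells have formed without the element, and a changed mixture of cells within a sort cannot be told apart from a change within the same kind of cell. Total counts over the regions ran from 23072701 (WT-LSK replicate 2) to 62204826 (URE-GMP replicate 2).

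The sorts were checked at promoter regions of marker genes. The summed signal of 4 GMP markers with a region (Mpo, Elane, Prtn3 and Ctsg) was 26.1 to 30.4 CPM in WT-LSK against 26.4 to 62.0 in URE-LSK. It was 244 to 328 in WT-GMP against 431 to 486 in URE-GMP. In LSK the means of Mpo and Ctsg were higher in URE. Those of Elane and Prtn3 were lower, at 1.05 and 4.67 CPM against 1.34 and 7.43 in WT. The 4 stem and progenitor markers (Hlf, Mecom, Hoxa9 and Meis1) summed to 233 to 242 CPM in WT-LSK and 245 to 262 in URE-LSK. They summed to 178 to 199 in WT-GMP and 165 to 176 in URE-GMP. Against these sums, Meis1 was lower in URE-LSK, at a mean of 45.4 CPM against 54.7. Mecom was higher in URE-GMP, at 116 against 101. The summed signal of 3 monocyte markers (Ly86, Csf1r and Irf8) was lower in URE-GMP, at 18.4 to 27.4 CPM against 41.4 to 56.4 in WT-GMP. The summed signal of 3 late neutrophil markers (S100a8, Ltf and Camp) was higher there, at 44.9 to 53.0 against 19.2 to 33.3. S100a8 and Camp rose, but Ltf was lower in URE-GMP, at a mean of 2.57 CPM against 3.03. In LSK the same 3 monocyte promoters summed to 19.6 to 20.3 CPM in URE and 23.8 to 30.1 in WT. The late neutrophil promoters summed to less in URE there, at 5.88 to 6.70 against 10.3 to 13.5. S100a8 and Ltf fell, but Camp was higher in URE-LSK, at a mean of 1.40 CPM against 0.538. The 1 mast and basophil marker with a region, Cpa3, was higher in URE-LSK, at 11.2 to 15.4 CPM against 5.43 to 8.42. The 2 B lineage markers with a region (Ebf1 and Pax5) summed to 29.3 to 29.5 CPM in URE-LSK and 23.3 to 26.35 in WT-LSK. In GMP they summed to 28.65 to 31.67 in URE and 19.57 to 28.81 in WT. Lck, the 1 T lineage marker with a region, was higher in URE-GMP, at 3.30 to 5.37 CPM against 1.14 to 2.18. The 2 erythroid markers with a region (Gata1 and Epor) summed to 10.7 to 12 CPM in URE-GMP and 16.8 to 22.1 in WT-GMP. The 3 megakaryocyte markers (Pf4, Itga2b and Gp9) summed to 17.5 to 28.15 CPM in URE-GMP and 27.7 to 47.6 in WT-GMP. In LSK they summed to 83.25 to 85.4 in URE and 59.7 to 82.9 in WT, though Pf4 was lower in URE-LSK. The part that such shifts have in the values below was not tested.

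The sequences below are the central 200 bases, on the forward strand of GRCm38, of the members with the highest WT level and of those with the largest fall. They are shown because they carry the 2 extremes of the set. Capitals mark the letters GNGGAANT on either strand, a looser form of the PU.1 word GAGGAAGT, and, in the region near Dppa3, which lacks that form, the shorter word GGAAGT.
Spi1 element, chr2:91083145-91083344: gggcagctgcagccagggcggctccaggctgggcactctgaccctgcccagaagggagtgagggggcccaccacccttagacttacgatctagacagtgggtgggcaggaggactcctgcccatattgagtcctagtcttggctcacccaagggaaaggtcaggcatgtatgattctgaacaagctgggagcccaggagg
Spen exon, chr4:141477704-141477903: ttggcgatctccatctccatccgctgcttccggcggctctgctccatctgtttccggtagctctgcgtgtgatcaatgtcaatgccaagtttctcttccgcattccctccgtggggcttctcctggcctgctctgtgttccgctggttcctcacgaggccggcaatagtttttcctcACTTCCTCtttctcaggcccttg
Dupd1 intron, chr14:21707116-21707315: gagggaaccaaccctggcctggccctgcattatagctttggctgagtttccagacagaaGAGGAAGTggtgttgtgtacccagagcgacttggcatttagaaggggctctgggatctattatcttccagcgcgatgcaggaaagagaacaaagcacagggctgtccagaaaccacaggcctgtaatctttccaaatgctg
Kcnk12 intron, chr17:87796203-87796402: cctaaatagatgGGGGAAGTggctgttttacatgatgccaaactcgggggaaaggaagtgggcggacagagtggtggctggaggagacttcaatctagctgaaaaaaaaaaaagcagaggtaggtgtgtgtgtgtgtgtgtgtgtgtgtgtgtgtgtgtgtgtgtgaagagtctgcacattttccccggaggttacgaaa
Tbc1d22a intron, chr15:86225085-86225284: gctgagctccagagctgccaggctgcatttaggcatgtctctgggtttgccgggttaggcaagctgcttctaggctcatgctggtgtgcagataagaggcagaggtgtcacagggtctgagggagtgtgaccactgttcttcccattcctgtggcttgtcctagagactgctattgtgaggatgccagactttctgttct
Near Dppa3, chr6:122657788-122657987: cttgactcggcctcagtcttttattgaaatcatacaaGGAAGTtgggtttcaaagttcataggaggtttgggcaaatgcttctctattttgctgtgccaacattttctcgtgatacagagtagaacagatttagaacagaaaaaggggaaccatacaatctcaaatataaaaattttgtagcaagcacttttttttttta
Cpne4 intron, chr9:104972877-104973076: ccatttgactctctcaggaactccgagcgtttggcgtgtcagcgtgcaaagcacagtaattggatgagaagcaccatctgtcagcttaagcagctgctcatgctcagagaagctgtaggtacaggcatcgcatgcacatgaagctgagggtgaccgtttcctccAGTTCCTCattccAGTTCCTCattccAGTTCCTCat
Near Akirin2, chr4:34495235-34495434: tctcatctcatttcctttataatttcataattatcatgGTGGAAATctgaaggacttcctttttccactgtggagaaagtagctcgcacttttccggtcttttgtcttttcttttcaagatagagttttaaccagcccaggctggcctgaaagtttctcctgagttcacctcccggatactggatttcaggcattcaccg
Near Fzd10, chr5:128617720-128617919: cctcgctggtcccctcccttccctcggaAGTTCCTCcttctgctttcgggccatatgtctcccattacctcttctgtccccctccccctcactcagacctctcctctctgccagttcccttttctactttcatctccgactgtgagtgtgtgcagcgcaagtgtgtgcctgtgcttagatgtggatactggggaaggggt
The letters GNGGAANT were present in 6 of the 9 windows. The window in the Cpne4 intron held the same word 3 times, as AGTTCCTC starting at bases 165, 178 and 191, with the same letters between the copies. In the Dupd1 intron the match was GAGGAAGT itself, and in the Spen exon it was ACTTCCTC, the same word read on the other strand. The Spi1 and Tbc1d22a windows held neither GNGGAANT nor GGAAGT, which says only that these letters are absent from the central 200 bases.

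The members upstream of Spi1 are given first. The member chr2:91082790-91083700 lies 13.7 kb upstream of the Spi1 promoter region and had the highest WT level of all members. It measured 38.4, 42.2 and 45.5 CPM in WT-LSK and 45.6, 45.4 and 42.7 in WT-GMP. In URE-LSK it measured 0.136, 0 and 0.0433 CPM, at most 6 reads in a library, and in URE-GMP 0.0408, 0 and 0.0455, at most 2 reads. A second member, chr2:91082170-91082472, lies 14.6 kb upstream, with 5.76 to 5.98 CPM in WT-LSK, 6.66 to 10.03 in WT-GMP, at most 2 reads in a URE-LSK library and none in URE-GMP. Against a floor of 3 counts per library it was at least 82.0-fold lower in LSK and at least 135-fold lower in GMP. Both lie in the stretch upstream of Spi1 where the URE is known to be, so their fall may be that of removed DNA, which these counts cannot tell apart from closed chromatin. The exact ends of the deletion are not given in the sources used here. All 6 URE libraries were at or near 0 there. The other 4639 members lie elsewhere.

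Across all members the fall was large in every mutant library. Members took 2.80% ± 0.117 (SD, n = 3) of all counts in WT-LSK and 2.88% ± 0.182 in WT-GMP, but 0.218% ± 0.0446 in URE-LSK and 0.351% ± 0.115 in URE-GMP. The median member stood at 4.33, 4.72 and 4.64 CPM in the WT-LSK libraries and at 0.204, 0.328 and 0.260 in URE-LSK. In GMP the medians were 4.38, 5.05 and 4.82 CPM in WT and 0.449, 0.643 and 0.364 in URE. Within both mutant groups replicate 2 was the highest library. These values entered the rule that chose the members, so they are a description and not a test of the loss. The values of all members by library are drawn as boxes, with WT and URE apart in each cell type.

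**Figure D1:**
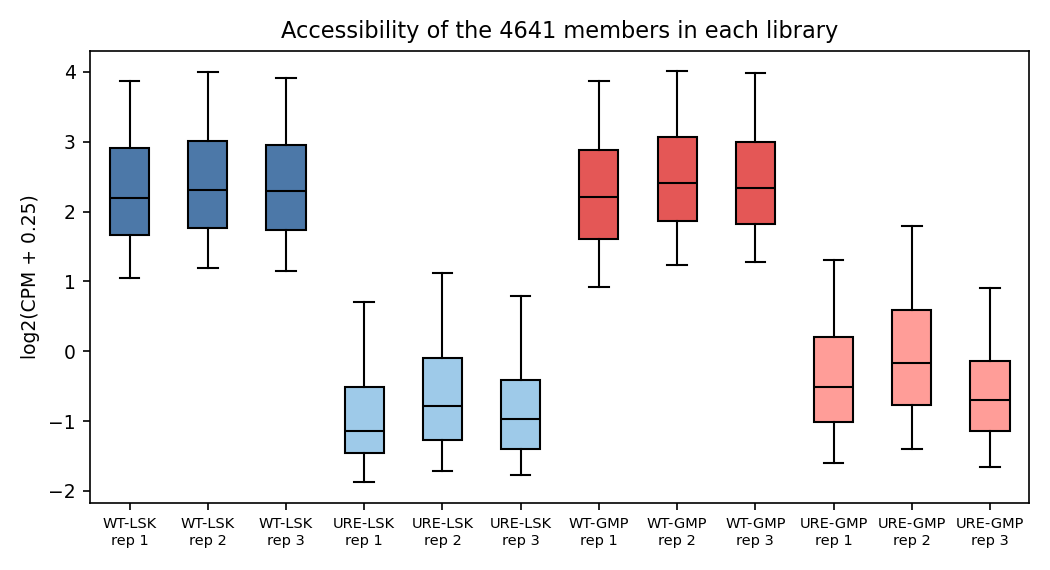
Accessibility of the 4641 members, as log2(CPM + 0.25), in each of the 12 libraries (boxes, quartiles with the median; whiskers, 5th to 95th percentile of members). The medians lie at 4.33 to 5.05 CPM in the 6 WT libraries and at 0.204 to 0.643 CPM in the 6 URE libraries.

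By the rule's own ratios the median member kept 12.1% of its WT level in LSK (5th to 95th percentile of members, 4.93 to 22.6%) and 16.3% in GMP (7.72 to 23.9%). These ratios chose the members and are given as a description. At most 1/8 was left in both cell types in 921 members (19.8%) and at most 1/16 in 71 (1.53%). Only 3 members had at most 3 counts in all 6 URE libraries, so nearly all kept some reads. A mean of at least 2 CPM remained in 136 members in URE-LSK and in 321 in URE-GMP. With edgeR over all regions (adjusted p under 0.05 and more than a 2-fold change), all 4641 members were called lower in LSK and in GMP, as the rule all but fixes; over all regions 23.9% were called lower in LSK, 24.1% in GMP and 18.7% in both. With loess offsets, which let the scaling vary with the level, all members were again called lower, and lower calls made up 44.3% of all calls in LSK in place of 63.8% and 49.8% in GMP in place of 60.6%. The 3 URE libraries lay under the 3 WT libraries in both cell types at all 4641 members and at 27.6% of all regions.

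Leaving out 1 library at a time gave values that were only partly outside the rule. The rule was applied to the other 11 libraries and the omitted one was then compared with the opposite genotype of its cell type. The libraries of that genotype, and the rest of the omitted library's group, had helped to choose the regions. The regions stable in WT were those chosen with all 12 libraries. The shares below are therefore a description and not a test of the loss. Between 4176 and 5226 regions were chosen in this way. With a URE-LSK library left out, its signal was at most 1/4 of the WT mean in 90.2 to 98.1% of the chosen regions, against 12.9 to 15.4% of all regions stable in WT. With a URE-GMP library left out, the share was 92.3% for replicate 1, 67.4% for replicate 2 and 97.5% for replicate 3, against 7.68 to 12.5% of the stable regions. With a WT-LSK library left out, the URE mean was at most 1/4 of its signal in 94.6 to 96.7% of the chosen regions. For WT-GMP replicates 1, 2 and 3 the shares were 78.5%, 94.4% and 90.8%. Over the stable regions these shares were 13.6 to 14.3% in LSK and 8.86 to 10.3% in GMP. In all 12 cases at least 99.6% of the chosen regions had lost more than 1/2 in the omitted comparison. URE-GMP replicate 2, which had the highest residual signal, gave the lowest of these shares, and 4609 of the 5226 regions chosen without it were members.

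The 3 members closest to the limit had a ratio that rounds to 0.25 in 1 of the cell types. In chr10:22301689-22301902, in a Raet1e intron, WT-GMP measured 3.59, 2.42 and 3.41 CPM and URE-GMP 0.693, 0.530 and 0.568. The others were chr17:51903987-51904272, whose nearest coding gene is Satb1, and chr1:192537192-192537600 in a Hhat intron. Just outside were chr14:102922548-102922908 near Kctd12, chr2:62392217-62392474 in a Dpp4 intron and chr3:108608943-108609275 in a Wdr47 intron. At the Kctd12 region, URE-GMP measured 1.14, 3.02 and 1.21 CPM against 6.48, 9.44 and 7.80 in WT-GMP.

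Besides the element, 4 of the 5 members with the highest WT level lie in other genes. At chr4:141477474-141478133, in a coding exon of Spen, which encodes a transcriptional repressor of the Notch pathway, the signal was 42.4, 44.2 and 39.9 CPM in WT-LSK and 0.794, 0.574 and 0.607 in URE-LSK. In GMP it was 29.4, 32.4 and 31.0 CPM in WT and 2.47, 5.98 and 0.591 in URE. The URE libraries lay under the WT libraries in both cell types, as at all members. The URE-GMP libraries differed among themselves far more than the URE-LSK ones. At chr15:86224764-86225605, in an intron of Tbc1d22a, the levels were 30.5 to 34.2 CPM in WT-LSK and 0.862 to 1.75 in URE-LSK, but 3.21 to 10.9 in URE-GMP against 31.5 to 35.3 in WT-GMP. At chr14:21706667-21707765, in an intron of Dupd1, a dual-specificity phosphatase gene, 5.58 to 9.38 CPM remained in URE-LSK and 3.77 to 7.57 in URE-GMP of 32.1 to 33.6 and 36.7 to 38.4 in WT. At chr17:87795790-87796816, in an intron of the potassium channel gene Kcnk12, the fall was the deeper in GMP, from 31.4 to 39.2 CPM to 0.932 to 1.33, against 33.9 to 36.7 to 2.90 to 3.99 in LSK.

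Outside the stretch upstream of Spi1, the largest summed falls were at lower WT levels. At chr6:122657628-122658148, in the intergenic stretch near Dppa3, the signal was 17.1, 18.03 and 15.7 CPM in WT-LSK and 0.136, 0.109 and 0.0650 in URE-LSK. In GMP it was 9.99, 10.6 and 10.3 CPM in WT and 0.265, 0.257 and 0.0682 in URE. At chr9:104972794-104973159, the Cpne4 intron with 3 copies of AGTTCCTC, the WT libraries measured 8.17 to 13.8 CPM in either cell type and the URE libraries 0.0227 to 0.193. At chr4:34495012-34495657, upstream of Akirin2, WT-GMP measured 17.9 to 22.8 CPM and URE-GMP 0.182 to 0.338. At chr5:128617621-128618019, near the Wnt receptor gene Fzd10, URE-LSK replicate 2 kept 0.410 CPM where the others kept 0.113 and 0.0217, of 12.9 to 13.3 in WT-LSK.

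The loss was deeper in LSK than in GMP at most members. The log2 ratio was more negative in LSK in 3464 members (74.6%) and in GMP in 1177 (25.4%), and the median difference, GMP minus LSK, was 0.38 on the log2 scale. The 2 ratios differed by less than 1 in 3780 members (81.4%). The edgeR interaction, the GMP change minus the LSK change, was called positive in 1100 members (23.7%) and negative in 67 (1.44%), beside 8.96% and 5.03% of all regions. Signal in URE-GMP was called higher than in URE-LSK in 2024 members (43.6%) and lower in 212 (4.57%), beside 27.6% and 21.6% of all regions. Between WT-GMP and WT-LSK, where the rule allows at most a 2-fold difference, 161 members (3.47%) were called, beside 37.8% of all regions. That count was 304 without WT-GMP replicate 3, 103 without WT-LSK replicate 3, 326 with loess offsets and 0 with glmTreat, which tests against the 2-fold change itself. With glmTreat 254 members had an interaction call in either direction in place of 1167, and 1238 differed between the URE groups in place of 2236. All of these contrasts share libraries with the rule and none is a test of the set.

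**Figure D2:**
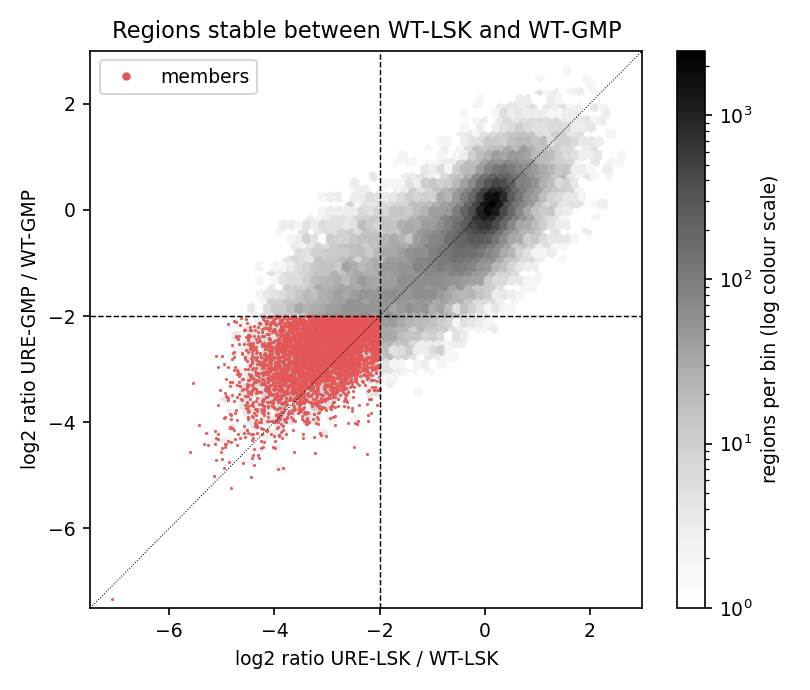
Log2 ratio of UREd/d over WT in LSK (horizontal) and GMP (vertical) for the 57441 regions stable in WT (grey, count per bin on a log colour scale) with the 4641 members in red. Dashed lines mark the limit of 1/4 and the dotted line equal ratios; 3464 members lie above the dotted line, with the larger fall in LSK.

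Single members went beyond this in either direction. At chr9:102730962-102731508, at a start site of Amotl2, which encodes an angiomotin-family scaffold protein, URE-LSK kept 2.31, 4.54 and 1.62 CPM of 12.6 to 16.3 in WT-LSK, while URE-GMP kept 0.469, 0.466 and 0.296 of 14.4 to 18.2. The regions chr10:88054230-88055036 and chr1:120449628-120450024, near the scavenger receptor gene Marco, followed the same order. The opposite order was seen at chr18:53266320-53266734 in a Snx24 intron, where URE-LSK kept 0.217 to 0.301 CPM and URE-GMP 2.48 to 5.16, of 12.5 to 16.7 and 14.3 to 19.1 in WT. It was also seen at chr1:179842540-179843042 and at chr6:83323664-83324048 in an intron of Mthfd2, a mitochondrial folate enzyme gene. At the Mthfd2 member URE-GMP replicate 3 stood at 0.864 CPM and the other 2 libraries at 2.26 and 2.62.

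Members were mostly distal. Within 500 bp of an annotated start site lay 348 members (7.50%, 95% Wilson interval 6.77 to 8.29%), against 31.0% of regions stable in WT, 18.9% of all regions and 54.0% of the 19377 stable regions whose ratio lay between 0.8 and 5/4 in both cell types (kept regions). Introns held 47.0% of members and intergenic DNA 37.1%, and coding exons held 4.57%. Stable regions lost only in LSK (n = 850) or only in GMP (n = 193), as defined below, had similar positions. Of these, 9.53% and 6.74% lay within 500 bp of an annotated start site. Introns held 47.3% and 50.8% of them, and intergenic DNA 35.9% and 36.8%. A mostly distal position was therefore not particular to the members. A total of 144 members lay within 500 bp of the start site of a protein-coding gene. The median distance to such a start site was 22071 bp in members, 15396 bp over all regions and 686 bp in the kept regions. The median width was 336 bp in members, 322 bp over all regions and 552 bp in kept regions. In the central 200 bases the median GC content was 48.5% in members, 50.5% over all regions and 58.5% in kept regions, with medians of 2, 3 and 9 CG dinucleotides, so members lay near all regions in these measures.

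The 4 promoter members with the highest WT level include the Spi1 element, which lies within 500 bp of an annotated start site of Spi1. At chr4:149702434-149703197, at a start site of Pik3cd, which encodes the delta catalytic subunit of PI3-kinase in leukocytes, the signal fell from 20.9 to 24.8 CPM in WT-LSK to 3.20 to 5.20 in URE-LSK, and from 38.7 to 42.7 in WT-GMP to 6.96 to 12.6 in URE-GMP. At chr7:142442379-142443061, at the start of the troponin gene Tnni2, it fell from 29.9 to 31.5 CPM to 0.520 to 2.35 in LSK and from 22.5 to 29.3 to 1.66 to 5.59 in GMP. The last, chr17:7430201-7430818, lies at a start site of a gene that is not protein-coding and kept 4.97 to 7.66 CPM in URE-LSK. In these 3 regions the URE libraries lay under the WT libraries in both cell types, as at all members and at 27.6% of all regions.

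The most enriched words of 8 bases were variants of 1 theme. Of 327 words found in at least 3% of members, the 10 with the highest share in members relative to all regions began with AAAGAGGA, present in 16.9% of members and 4.67% of all regions, and AGTTCCTC, in 9.39% and 2.61%. AAGAGGAA was the most frequent of the 10, in 24.5% of members against 7.22% of all regions. Read on either strand, 5 of the 10 contain GAGGAA and the rest contain GAGG or GGGAA, so the words overlap and count many of the same sites. The PU.1 word GAGGAAGT was present in the central 200 bases of 854 members (18.4%, 95% Wilson interval 17.3 to 19.5%), against 7.61% of stable regions, 2.07% of kept regions and 7.41% of all regions. It was present in 25.9% of the 850 regions lost only in LSK (at most 1/4 left in LSK and more than 0.5 in GMP), a larger share than in members, and in 11.4% of the 193 lost only in GMP. The looser GNGGAANT, which contains it and was written down after the words had been seen, was present in 2205 members (47.5%) against 21.7% of all regions.

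The PU.1 word was concentrated at the centre of the members. In the 50 bp on either side of the centre there were 1.40 and 1.37 words per kb, against 0.0690 per kb at 950 to 1000 bp upstream. In kept regions the central values were 0.119 and 0.120 per kb, and over all regions 0.530 and 0.545. The profile of words around the centre shows this for each set of regions.

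**Figure D3:**
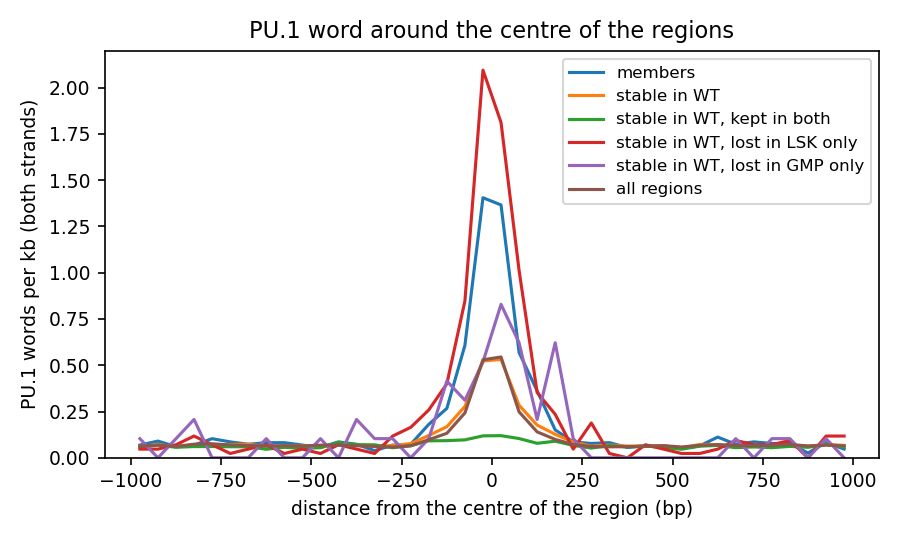
PU.1 words (both strands) per kb in 50 bp bins against the distance from the centre of the region, for members, the other sets of regions stable in WT, and all regions. The members reach 1.40 words per kb at the centre, regions lost only in LSK 2.09, all regions 0.545 and kept regions 0.120; the 193 regions lost only in GMP give a ragged line.

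Shares were also counted apart from promoters. Away from promoters the PU.1 word was present in 18.4% of 4293 members, 8.53% of the other stable regions, 2.72% of kept regions and 8.28% of all regions. Among stable regions, the share that were members rose with the number of PU.1 words, from 7.14% with none (n = 53072) to 19.2% with 1 (n = 4224) and 31.2% with 2 (n = 128), while of the 17 regions with 3 words 2 were members. Away from promoters these shares were 9.77%, 20.5% and 32.5%. Stable regions at promoters with 1 word were members in 11.0% of cases (n = 553), against 1.66% with none. The shares are counts over regions, and regions of 1 genome share base composition and repeats, so they carry no p-value. The rule bounds the ratios of the members, so the depth of their loss cannot be set against the word. Over all stable regions the median edgeR log2 fold change was 0.13 in LSK and 0.03 in GMP with none, and -1.54 and -1.08 with 1 word. None of GAGGAAGT, GNGGAANT and GGAAGT was found in 1642 members (35.4%).

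Other words were counted in the same windows. Away from promoters the ETS-IRF composite GGAANTGAA, bound by PU.1 together with IRF4 or IRF8, was present in 6.50% of members, 1.95% of kept regions and 3.88% of all regions. The IRF word GAAANNGAA was present in 10.7%, 6.81% and 8.03%, and the MEF2 word TATTTNTA in 5.52%, 2.56% and 3.58%. The regions lost only in GMP held the ETS-IRF, IRF and MEF2 words in 7.78%, 14.4% and 6.67%, larger shares than in members. Those lost only in LSK held them in 4.29%, 8.19% and 2.60%. The RUNX word AACCACA was present in 9.50% of members, 8.42% of kept regions and 13.03% of all regions, and the CEBP word TTGCNNAA in 8.29%, 8.68% and 13.7%. The AP-1 word TGANTCA was present in 6.73%, 6.54% and 10.2%, and the GATA word AGATAA in 9.55%, 6.55% and 9.28%. The general ETS word CCGGAAGT was rare, in 0.280% of members and 0.718% of kept regions. The CTCF motif was present in 0.0233% of members, 1 region, in 17.1% of kept regions and in 3.96% of all regions. It was also rare in the regions lost in 1 cell type only, with 0.130% in LSK and 0% in GMP. In the 769 regions lost only in LSK, the CEBP word was present in 21.3%, and in the 180 lost only in GMP the AP-1 word in 17.8%, against 8.29% and 6.73% of members. All words were searched on both strands, and a match is not a binding site.

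**Figure D4:**
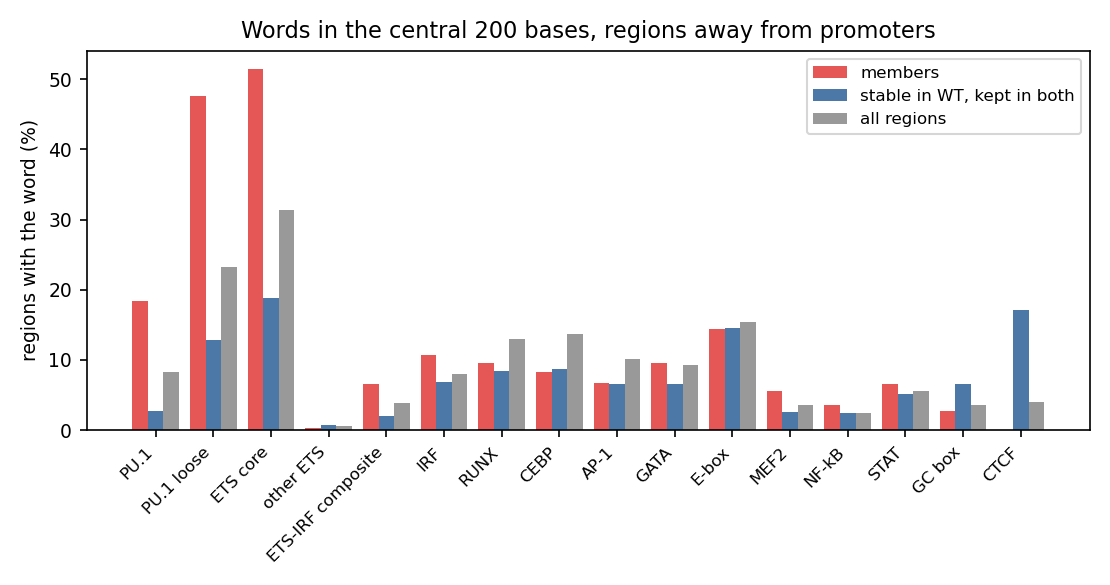
Share of regions away from promoters whose central 200 bases hold each word, in percent, for the 4293 members (red), the 8918 regions kept in both cell types (blue) and the 98416 regions overall (grey). The PU.1 words stand highest over kept regions in members (18.4% against 2.72%). The CTCF motif is found in 0.0233% of members, 17.1% of kept regions and 3.96% of all regions. It is also rare in the regions lost only in LSK or only in GMP (0.130% and 0%, not drawn). ETS core is the word GGAAGT and other ETS the word CCGGAAGT.

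Each member was linked to the protein-coding gene with the nearest start site, which is a label of position and not a measured target. The members fell to 3202 genes, of which 2270 had 1 member, 932 had at least 2 and 32 at least 5. The gene with the most was Ntm, which encodes a neural adhesion molecule: all 8 of its members lie in its introns on chromosome 9, 74101 to 235594 bp from the nearest start site, and they are 8 of the 9 stable regions assigned to it. In its member chr9:29790026-29790387 the means were 7.81 CPM in WT-LSK against 0.520 in URE-LSK, with 9.10 in WT-GMP against 0.353 in URE-GMP. Dusp22, a dual-specificity phosphatase gene, had 7 of 11 stable regions, among them chr13:30612143-30612715 with means of 13.3 and 0.390 CPM in WT-LSK and URE-LSK and 13.4 and 0.487 in GMP. A further 8 genes had 6, among them 4930426L09Rik, Adgrl2 and Filip1l by the alphabet, and for Adgrl2 these were 6 of 41.

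Of the lists of blood genes, B lineage genes and myeloid receptors had the highest share of their stable regions among the members, where 8.08% of all stable regions were members. For 54 genes of myeloid receptors, 30 of 233 stable regions were members (12.9%), and 20 genes had at least 1. Itgam, the alpha chain of the phagocyte integrin CD11b, had 5: at chr7:128048717-128049258, 13382 bp upstream, the signal was 24.3 to 31.9 CPM in WT-LSK against 4.85 to 6.50 in URE-LSK, with 20.9 to 31.0 in WT-GMP against 3.36 to 6.82 in URE-GMP. Near Cd180, a Toll-like receptor homologue, chr13:102689498-102690300 fell from a mean of 15.2 to 0.876 CPM in LSK and from 19.1 to 1.82 in GMP. At the start of Tlr9, the receptor for CpG DNA, chr9:106222181-106222748 measured 8.66 to 15.0 CPM in WT-LSK against 0.108 to 0.547 in URE-LSK, with 20.2 to 21.9 in WT-GMP against 0.978 to 5.45 in URE-GMP. For immune receptor signalling, 41 of 366 stable regions were members (11.2%), with Pik3cd above, Pik3cg and Inpp5d, which encodes the lipid phosphatase SHIP1, among them. In an intron of Sh2d1b1, an adaptor gene of natural killer cells, chr1:170282237-170283112 kept 0.408 to 0.520 CPM in URE-LSK and 3.36 to 6.85 in URE-GMP, of 13.96 to 17.99 in WT-LSK and 25.3 to 28.4 in WT-GMP.

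For B lineage genes, 22 of 113 stable regions were members (19.5%), in 15 of 32 genes. They include chr15:82218715-82219205 near Tnfrsf13c, the BAFF receptor gene, with means of 11.0 and 2.37 CPM in WT-LSK and URE-LSK, and chr1:170934422-170934881 near Fcrla, with 10.8 and 0.596. A coding exon of Cd24a held chr10:43582575-43582948, with 11.9 and 0.453 CPM in LSK and 8.19 and 1.01 in GMP. For phagocyte oxidase and lysosome genes the count was 12 of 128 (9.38%), with members near the protease genes Lgmn and Ctss and near Psap. For adhesion and actin genes it was 27 of 311 (8.68%), among them chr2:79227732-79228427 near Itga4, the alpha chain of VLA-4, and a pair of regions in Elmo1, which acts in engulfment. For transcription factors it was 100 of 1160 (8.62%), including chr8:115555361-115556063, 151033 bp from Maf, where WT-GMP measured 29.2 to 33.0 CPM and URE-GMP 3.59 to 7.14. Near Runx3 the member chr4:135181778-135182265 measured 20.1 to 22.1 CPM in WT-LSK and 0.454 to 1.15 in URE-LSK, and near Batf3 the member chr1:191085524-191086093 24.8 to 27.8 and 0.862 to 1.67.

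Lists of other lineages lay near or under the overall share. It was 7 of 71 stable regions (9.86%) for erythroid genes, 8 of 104 (7.69%) for mast and basophil genes, 3 of 46 (6.52%) for neutrophil granule genes, 14 of 270 (5.19%) for stem cell genes, 7 of 140 (5%) for T and NK lineage genes and 6 of 121 (4.96%) for megakaryocyte genes. A few members stand near well-known genes of these lists. At the start of Bpi, a bactericidal protein of neutrophil granules, chr2:158257957-158258502 measured 14.5 to 15.7 CPM in WT-LSK against 1.71 to 2.22 in URE-LSK, with 14.9 to 21.1 in WT-GMP against 2.75 to 5 in URE-GMP. Downstream of Mpo, in an intron of Lpo, chr11:87811464-87811848 kept 0.455 to 0.726 CPM in URE-LSK and 2.001 to 3.04 in URE-GMP of 11.1 to 12.8 and 8.13 to 13.4. Near the stem cell genes Meis1 and Mllt3 the members were weaker, at means of 3.99 and 4.66 CPM in WT-LSK and 0.0770 and 0.105 in URE-LSK. The lists were chosen with results of these data known, and their shares are counts without a test.

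Promoters of the linked genes were measured as promoter regions, within 500 bp of a protein-coding start site, that are not members, so a fall as large as the members' in both cell types was left out of them wherever the rule's other limits were met. The median log2 fold change of the 3638 promoter regions of linked genes was 0.20 in LSK and 0.10 in GMP, against 0.23 and 0.17 over all 16644 promoter regions. By the edgeR call 275 (7.56%) were lower in LSK and 68 (1.87%) higher, and 343 (9.43%) were lower in GMP and 98 (2.69%) higher. Over all promoter regions, 5.08% were lower and 2.64% higher in LSK, and 5.68% and 3.67% in GMP. Promoter regions of genes with no member were lower in 4.39% and 4.63%. In GMP the share called lower was 8.44% for genes with 1 member, 10.7% with 2 and 12.7% with 3 or more, and in LSK 7.58%, 7.62% and 7.34%. With loess offsets, lower calls made up 57.8% of the calls in linked promoters in LSK in place of 80.2%, and 43.5% in place of 65.8% over all promoter regions.

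Some linked promoters did fall with their members, and others did not. The Itgam promoter fell from 9.09 ± 0.961 CPM (SD, n = 3) to 0.459 ± 0.193 in LSK, a log2 fold change of -4.20 ± 0.33 (SE, edgeR, adjusted p = 3.94e-08), and from 8.93 ± 0.476 to 2.21 ± 0.907 in GMP, -1.88 ± 0.27 (edgeR, adjusted p = 2.34e-05). The promoter region of Cd180 fell by 2.38 on the log2 scale in LSK and by 1.51 in GMP, and that of Cd24a, a surface glycoprotein gene, by 1.82 and 1.37. At Kcnk12 the promoter fell by 1.52 in LSK and by 2.47 in GMP, so the larger fall was in GMP, as in its intronic member. In Arhgap15, a Rac GTPase-activating protein gene, the promoter fell by 1.13 in LSK, while in GMP its log2 fold change was -0.20 ± 0.12 (edgeR, adjusted p = 0.153). The other Pik3cd promoter region had log2 fold changes of 0.29 in LSK and -0.05 in GMP, that of Runx3 0.05 and -0.13, that of Erg 0.31 and 0.27 and that of Itga4 -0.01 and 0.00, none past the threshold. The Spi1 promoter region fell from 37.5 ± 1.38 to 5.57 ± 2.80 CPM in LSK, a log2 fold change of -2.65 ± 0.25 (edgeR, adjusted p = 2.2e-07). In GMP it was 36.4 ± 2.71 in WT and 23.3 ± 3.54 in URE, -0.52 ± 0.22 (edgeR, adjusted p = 0.0555).

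Promoter regions of the listed genes that are not members were counted in both directions, beside 5.08% lower and 2.64% higher in LSK and 5.68% and 3.67% in GMP over all promoter regions. For myeloid receptors 26 of 52 were lower and 1 higher in LSK, and 18 lower and 0 higher in GMP. For immune receptor signalling 15 of 59 were lower and 0 higher in LSK, and 17 and 1 in GMP. For B lineage genes 8 of 21 were lower and 1 higher in LSK, and 7 and 2 in GMP. For adhesion and actin genes the counts were 10 of 62 lower and 1 higher in LSK, and 7 and 1 in GMP. For transcription factors they were 16 of 157 lower and 4 higher in LSK, and 14 and 3 in GMP. For stem cell genes they were 3 of 54 lower and 0 higher in LSK, and 5 and 0 in GMP. Phagocyte oxidase and lysosome genes had 8 of 37 lower and 1 higher in LSK, but 3 and 3 in GMP. T and NK lineage genes had 7 of 33 lower and 3 higher in LSK, and 4 and 4 in GMP. Erythroid genes had 2 of 26 lower and 2 higher in LSK, and 2 and 1 in GMP, and mast and basophil genes 3 of 21 and 2 in LSK, and 2 and 2 in GMP. Megakaryocyte genes had 2 of 27 lower and 1 higher in LSK, and 4 and 1 in GMP. For neutrophil granule genes 4 of 23 were lower and 5 higher in LSK, and 1 lower and 5 higher in GMP.

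Regions close to a member were lower more often than regions far from one. Within 10 kb of a member, 2811 of 9637 other regions (29.2%) were called lower in LSK and 3025 (31.4%) in GMP, beside 20.9% and 21.0% of all regions that are not members. Away from promoters the share lower in LSK was 36.2% within 5 kb (n = 4278), 28.2% at 5 to 10 kb, 25.6% at 10 to 50 kb, 23.5% at 50 to 100 kb and 22.0% beyond 100 kb (n = 48859). The shares in GMP were 38.4%, 30.6%, 25.6%, 24.0% and 21.5%. At promoters they fell from 16.6% to 6.90% in LSK and from 17.7% to 7.28% in GMP over the same distances. Higher calls went the other way, from 8.70% within 5 kb to 19.3% beyond 100 kb in LSK away from promoters. The share with GNGGAANT was 24.5% within 5 kb and 21.8% beyond 100 kb. With loess offsets 21.5% of regions within 10 kb were lower in LSK, and lower calls made up 57.0% of the calls in place of 76.9%. Over all regions, members included, 23.9% were lower in LSK in the main fit and 18.2% with loess offsets. Lower calls made up 63.8% and 44.3% of those calls. Every member was called lower, so these shares lie above those of the regions that are not members.

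**Figure D5:**
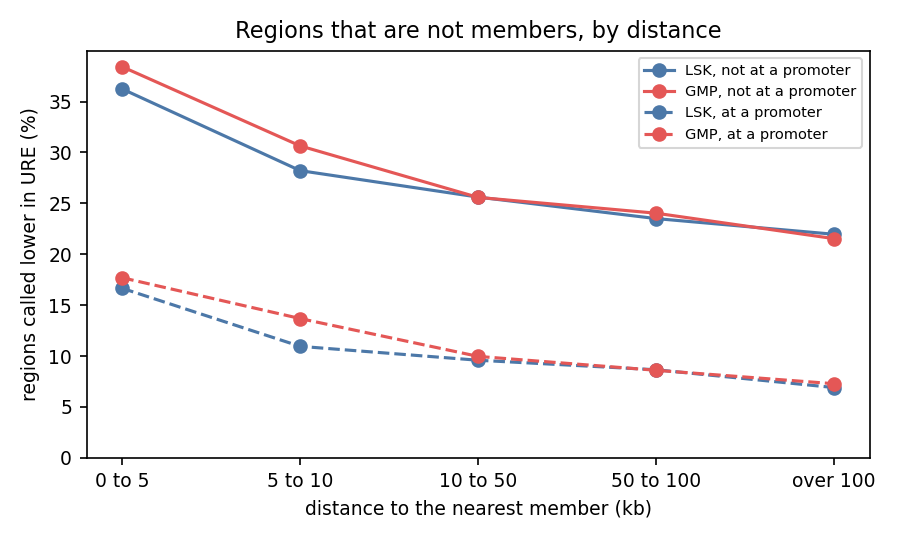
Share of regions that are not members called lower in UREd/d (edgeR, adjusted p under 0.05 and more than a 2-fold change), in percent, by distance to the nearest member, in LSK (blue) and GMP (red), away from promoters (solid) and at promoters (dashed). Away from promoters the share falls from 36.2% to 22.0% in LSK and from 38.4% to 21.5% in GMP.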

How the data were processed

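ATAC-seq counts per region were analysed for 12 libraries of sorted mouse bone marrow cells. The unit used here is the raw count per region as the authors deposited it. The regions come from Genrich peak sets, 1 for each combination of genotype and sort, built on Bowtie2 alignments (GRCm38) cleared of duplicates and of reads outside the main chromosomes. The submitters' processing notes also name cutadapt, bedtools and featureCounts. Columns were matched to samples by title. Region starts were read as 0-based and are printed 1-based.

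Counts were fitted in edgeR 4.0.16 (R 4.3.3) with TMM factors, 1 coefficient per group and the quasi-likelihood F test (two-sided, Benjamini-Hochberg over all 121336 regions, called at adjusted p under 0.05 and a log2 fold change over 1). The fit was tested on simulated data. The SE given with a log2 fold change is its absolute value divided by the square root of the F statistic. Positions came from GENCODE annotation of GRCm38, and sequence from the GRCm38 assembly of RefSeq. Members, gene lists and words were chosen with earlier results of these data known. Named regions were the 5 with the highest WT level, the 5 with the largest summed fall, 3 at each end of the difference between cell types, 4 promoters, up to 4 per gene list, the 5 genes with the most members and 3 on each side of the limit. Samples with the same number were taken as paired where every correlation of their deviations was over 0.1, which held for WT-LSK with WT-GMP (0.167, 0.166 and 0.184) but not for WT with URE in LSK (0.0881, 0.0616 and -0.0438) or in GMP (0.0943, 0.194 and 0.33), nor for URE-LSK with URE-GMP (0.0526, 0.256 and 0.0992); the labels give no shared animal. Alternatives were DESeq2 1.42.0, other scalings, filters, thresholds, blocks and left-out libraries. Intervals cover counting error only.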

Additional observations from a re-analysis of the deposited data

Results flagged for a closer look

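The change at 3 linked promoters differed between the cell types by the edgeR interaction, the GMP change minus the LSK change. At the Spi1 promoter region the interaction was 2.13 ± 0.33 on the log2 scale (SE, edgeR, adjusted p = 0.00051): the region fell by 2.65 in LSK, while the GMP value was -0.52. At the Itgam promoter region it was 2.32 ± 0.42 (SE, edgeR, adjusted p = 0.00156), with falls of 4.20 in LSK and 1.88 in GMP. At the Amotl2 promoter region it was -1.125 ± 0.23 (SE, edgeR, adjusted p = 0.004), where the LSK value was -0.01 and the region fell by 1.13 in GMP. These 3 were the promoter regions with such a call among those of the named genes, most of which had none. Over all regions 8.96% had a positive interaction call and 5.03% a negative one, so the 3 calls are not read as an excess. All 3 genes have members, but nearly all named genes were named for theirs, so this is no result. Amotl2 was named for the difference between cell types at its member.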

How the results depend on the processing

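Every one of the 4641 members was called lower in both cell types under RLE scaling, library size only, loess offsets and the stricter threshold. The same held with glmTreat, fits of 2 groups, the replicate block and each left-out library (4641 to 4641). The members stayed those chosen with all 12 libraries, so the rule all but fixes this outcome under every setting. DESeq2 called 4639 in each cell type and gave no adjusted p for the other 2. A filter at a mean of 2 CPM over all libraries removed 1702 members, so that 2939 were tested and called. The rule itself chose 6977 regions at 1/3, 2093 at 1/6 and 2476 with at least 4 CPM in WT, and 4176 to 5226 with a library left out; 4048 were chosen after TMM scaling. Members called between WT-GMP and WT-LSK went from 161 to 326 with loess offsets, 105 with the filter, 0 with glmTreat and 103 to 304 with a library left out, the extremes without WT-LSK replicate 3 and without WT-GMP replicate 3. Members called between URE-GMP and URE-LSK went from 2236 to 1238 with glmTreat and 1755 to 2431 with a library left out. Interaction calls went from 1167 to 530 at adjusted p under 0.01, 254 with glmTreat and 784 to 1487 with a library left out. Linked promoters lower in GMP went from 9.43% to 4.95% with glmTreat; leaving out a library gave 8.63 to 10.5% there, 7.15 to 7.89% in LSK, and for neighbouring regions 28.1 to 30.1% in LSK and 30.4 to 32.5% in GMP. The share of members with the PU.1 word was 22.9% over whole regions, 12.6% in the central 100 bases, 17.2% for members at 1/6 and 18.04 to 18.98% with a library left out; the words GGAAGT, AGAGGAAGT and GNGGAANT gave 51.1%, 8.73% and 47.5%. The share at promoters was 11.1% within 1 kb, 34.7% within 5 kb, 3.10% for protein-coding start sites and 7.31 to 7.78% with a library left out. The cause of these changes was not tested beyond what each setting alters. With the replicate number as a block, the members called between WT-GMP and WT-LSK, the only pair of groups whose numbers paired, were 169, those between URE-GMP and URE-LSK 2225 and those with an interaction call 1277. Linked promoters lower under the block were 7.64% in LSK and 9.51% in GMP, and neighbouring regions 29.5% and 31.4%. The 2 members taken to lie in the deleted element were also left out, an alternative chosen after seeing the data, as was GNGGAANT. Leaving them out gave 18.4% with the PU.1 word and 7.46% at promoters. Library size alone moved the median log2 fold change of all regions by -0.12 in both cell types and loess offsets by 0.15 in LSK, and with loess offsets lower calls made up 44.3% of all calls in LSK (63.8% with TMM) and 49.8% in GMP (60.6%).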

Other observations

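Another member lay within 10 kb of 736 members (15.9%) and within 100 kb of 2693 (58.0%), and 184 (3.96%) had one within 1 kb. The share of stable regions that were members ran from 5.59% on chromosome X and 5.92% on chromosome 11 to 9.77% on chromosome 16 and 10.5% on chromosome 1, with 386 members on chromosome 1. Repeats covered a median of 11.0% of the central 200 bases of members, 9.5% over all regions, 5.5% in stable regions and 0% in kept regions. Members at promoters had a median WT level of 5.69 CPM against 4.61 in introns, with median log2 ratios of -3.04 and -3.02 in LSK. These are counts and medians over regions and were not tested.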
